A study of Mus musculus with 6 samples.

Results

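The interferon response and class I antigen presentation were followed through 42 genes, picked by symbol from the 23481 genes of the deposited count table. They comprise 32 genes of the antiviral arm (signalling factors, RNA sensors, antiviral effectors and their regulators), 9 genes of class I presentation, and Cd274, which encodes the checkpoint ligand PD-L1. The cells were 4T1 mouse mammary carcinoma cells (4T1_T in the name of the deposited table, which the labels do not explain), grown in DMEM with non-essential amino acids and infected with a short hairpin RNA; the labels give neither the time after infection nor the vector. The hairpins shAsns-1 and shAsns-2 target Asns, the gene of asparagine synthetase, and shRenilla targets a luciferase that mouse cells lack, so the control cells carried a hairpin too. Each hairpin had libraries A and B in the labels, but every gene of shAsns-1 B was at 0 reads, which left 5 libraries: 1 of shAsns-1, 2 of shAsns-2 and 2 of shRenilla. Nothing in the labels says that A and B were separate cultures, so p-values measure the spread between these libraries, which may be technical.

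Type I interferons bind a receptor on the cell surface and act through the JAK kinases on a complex of STAT proteins and IRF9, while interferon gamma acts through STAT dimers. The first complex binds the interferon-stimulated response element in DNA and switches on antiviral genes; STAT dimers bind the gamma-activated sequence. Class I molecules, made of a heavy chain (such as H2-K1 or H2-D1) and beta-2-microglobulin (B2m), carry peptides cut by the proteasome and moved into the endoplasmic reticulum by the transporter TAP, and show them to T cells. Tumour cells commonly keep some class I presentation without interferon, and interferon raises it further.

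The 5 libraries held 10244753 to 15955168 gene reads, and the floor of 3 reads was worth 0.188 to 0.293 CPM (reads per 1000000 gene reads); where a hairpin has a pair of values, library A comes first. Asns stood at 58.7 and 56.9 CPM for shRenilla and 45.7 and 44.2 CPM for shAsns-2. This difference was not called by the planned fit (0.792-fold, log2 fold change -0.34, edgeR adjusted p = 0.216). Over the alternative ways of processing the lowest edgeR adjusted p for Asns was 0.0388, so this result depended on the processing. The library labelled shAsns-1 had 110 CPM, against its label (log2 fold change 0.92, edgeR adjusted p = 6.27e-05). Beside 15052 to 15392 genes with a read in the other libraries, that library had reads at 17672, and olfactory receptor genes summed to 41.3 CPM in it over 1115 genes against 7.99 to 11.9 CPM elsewhere. Of 7 markers of the mammary carcinoma line, 6 had reads in every library (Krt8 and Krt18 at 206 CPM or more, Cldn7 at 1.17 to 3.57 CPM), and Krt5 had 2 reads in the library labelled shAsns-1 and 0 elsewhere. Many defining markers of other cells were at or near 0: of 10 leukocyte markers Lyz2 had no read in any library, Tyrobp and Cd3e had at most 0.0976 CPM, and the class II gene H2-Eb1 had no read. Exceptions were Cd68 (4.07 to 6.37 CPM), Cd74 (6.49 to 9.10 CPM) and the fibroblast marker Pdgfra (28.4 to 38.1 CPM). Csf1r, another of the 10 leukocyte markers, had 3 to 7 reads in every library (0.216 to 0.490 CPM). The 5 endothelial markers summed to 0.36 to 1.43 CPM, with Kdr and Cdh5 highest at 6 reads each in shAsns-2 A.

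The promoters below show where the response element lies in 4 of the genes described further on, and the Tap1 promoter, where it was not found. Each is the 250 bases before the RefSeq transcript start, 5′ to 3′ on the strand of the gene, in GRCm38.p6; capitals mark the interferon-stimulated response element, searched on both strands as GAAA, any 2 bases, GAAA. The promoters lie at chr19:34640639-34640888 (plus strand, Ifit1), chr3:142530086-142530335 (plus, Gbp7), chr4:156200819-156201068 (minus, Isg15), chr2:122147437-122147686 (plus, B2m) and chr17:34187306-34187555 (plus, Tap1).
Ifit1: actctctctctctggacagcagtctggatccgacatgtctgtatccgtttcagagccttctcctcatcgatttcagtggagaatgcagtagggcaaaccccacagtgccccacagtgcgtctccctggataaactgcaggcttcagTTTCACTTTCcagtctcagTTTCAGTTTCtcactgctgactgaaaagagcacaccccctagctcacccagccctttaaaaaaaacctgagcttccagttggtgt
Gbp7: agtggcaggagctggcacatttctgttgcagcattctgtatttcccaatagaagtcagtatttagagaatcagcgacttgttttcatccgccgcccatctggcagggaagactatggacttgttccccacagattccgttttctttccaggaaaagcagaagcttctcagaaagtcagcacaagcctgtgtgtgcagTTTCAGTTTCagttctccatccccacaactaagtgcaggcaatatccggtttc
Isg15: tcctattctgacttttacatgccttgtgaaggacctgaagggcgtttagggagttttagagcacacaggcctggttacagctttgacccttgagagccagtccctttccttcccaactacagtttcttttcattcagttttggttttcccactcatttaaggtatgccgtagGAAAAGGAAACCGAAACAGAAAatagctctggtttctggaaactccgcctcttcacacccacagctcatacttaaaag
B2m: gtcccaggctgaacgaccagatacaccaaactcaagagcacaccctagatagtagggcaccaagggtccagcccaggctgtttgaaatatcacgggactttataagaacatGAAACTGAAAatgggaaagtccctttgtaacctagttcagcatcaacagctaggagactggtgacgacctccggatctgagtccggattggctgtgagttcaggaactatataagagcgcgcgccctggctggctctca
Tap1: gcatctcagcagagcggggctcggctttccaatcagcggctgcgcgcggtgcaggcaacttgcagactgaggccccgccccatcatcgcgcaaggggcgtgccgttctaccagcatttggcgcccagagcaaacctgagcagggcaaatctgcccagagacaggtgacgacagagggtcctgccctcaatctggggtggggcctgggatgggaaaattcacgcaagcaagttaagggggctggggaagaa

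Ifit1 held 2 copies, centred at -100 and -81 from the start (position 0), and Isg15 held 3 overlapping copies at -74, -68 and -62. Gbp7 held 1 copy at -49 and B2m 1 copy at -135. Among the 33 members with a RefSeq promoter entry, read over 250 bases before and 50 bases after each start, 13 of 24 antiviral genes (54.2%) and 1 of 8 presentation genes (12.5%) held the element, against 3.99% of 27025 genes with an entry. By this pattern B2m was the presentation gene with a match, and Cd274 had none. H2-K1, H2-D1 and Cd274 matched only a shorter core of it, AANNGAAA. Lack of a match therefore does not show that a gene has no response site. The gamma-activated sequence, searched as TTCNNNGAA, was found in 8 of 24 antiviral genes (33.3%) and in 1 of 8 presentation genes (12.5%), against 9.55% of all genes with an entry. Psmb9 and Tap1 lie head to head and their promoter entries share 275 bases, so these are not independent entries. A match describes the letters only. Dhx58, Mx1, Mx2, Oas2, Usp18, Parp9, Parp14, Rtp4 and Tap2 had no entry.

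**Figure D1:**
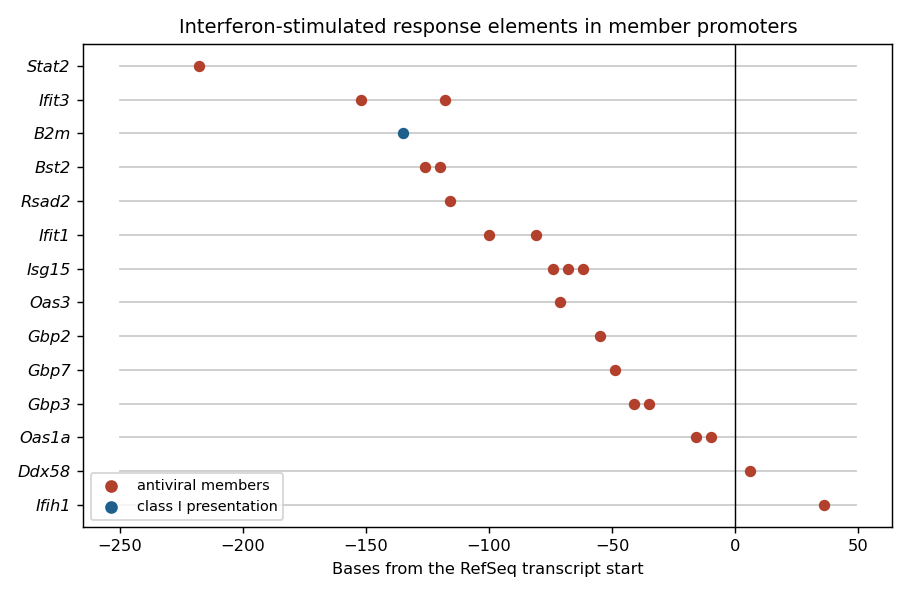
Position of each interferon-stimulated response element in the promoters of the 14 members that held it. The x axis gives bases from the RefSeq transcript start, grey lines mark the window searched, and points mark the centre of each element. Ddx58 and Ifih1 carried theirs after the start.

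At baseline the class I heavy chains and B2m were abundant, while the interferon ligands and 9 of the 17 antiviral effectors were under 1 CPM per kilobase in shRenilla. Per kilobase of exon, the median of the 9 presentation genes in shRenilla was 8.48 CPM per kilobase and that of the 32 antiviral genes 1.29 CPM per kilobase, beside 6.17 over 12353 genes that were tested and have a length. Of the antiviral genes 13 lay under 1 CPM per kilobase and 2 above 10; of the presentation genes 2 lay under 1 and 4 above 10.

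B2m, the light chain shared by all classical class I molecules, stood at 1497 CPM per kilobase and ranked 5 among 23112 genes with a length. The heavy chains H2-D1, at 151 CPM per kilobase, and H2-K1, at 60.3, ranked 195 and 669. Tapbp, or tapasin, which holds empty class I molecules at the transporter, stood at 11.7 CPM per kilobase. The transporter itself was low, with Tap1 at 0.541 CPM per kilobase and Tap2 at 1.05, and the inducible proteasome subunit Psmb9, which shares the Tap1 promoter region, stood at 0.581. Class I chaperones outside the members, Canx, Pdia3 and Calr, stood at 205, 147 and 119 CPM per kilobase. These levels are from shRenilla, as are all baseline values here. Tap1 had 2.57 and 3.36 CPM for shRenilla, 2.58 and 3.96 CPM for shAsns-2 and 3.90 CPM for the library labelled shAsns-1. For Tap1, shRenilla and shAsns-2 overlapped. The library labelled shAsns-1 lay above both shRenilla libraries and between the shAsns-2 libraries. Tap2 had 3.26 and 4.69, 3.53 and 4.18, and 6.15 CPM in that order, highest in the last. Psmb9 had 1.94 and 2.31, 2.67 and 3.10, and 3.42 CPM, with both shRenilla libraries lowest.

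H2-K1 and H2-D1 levels carry an uncertainty of their own, because class I genes are alike and differ between strains. Of all windows of 50 bases in the longest H2-K1 transcript, 8.11% also occur in transcripts of other genes, and of those of H2-D1 14.3%. The reference mm10 is a C57BL/6J genome, whereas 4T1 derives from BALB/c, which carries other class I alleles; the effect on the read counts was not tested. For Ifit3 and Oas1a the share was 51.2% (with Ifit3b) and 57.6% (with Oas1g), so their levels are uncertain as well. For B2m it was 0%.

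Among antiviral genes the most abundant were Trim25, a ubiquitin ligase that acts on RIG-I, at 41.4 CPM per kilobase, the nucleotide hydrolase Samhd1 at 15.7, and Ddx58, which encodes the RNA sensor RIG-I, at 6.80. Samhd1 had 140 and 148 CPM for shRenilla, 145 and 139 CPM for shAsns-2 and 158 CPM for the library labelled shAsns-1, the highest. Ddx58 had 44.0 and 51.9, 45.9 and 44.4, and 52.5 CPM in that order. For Ddx58, shRenilla and shAsns-2 overlapped, and the library labelled shAsns-1 was the highest. Of the other sensors Ifih1 (MDA5) stood at 1.80 and Dhx58 (LGP2) at 0.435 CPM per kilobase. The signalling factors spanned a wide range of levels: Irf1 was at 6.42, Stat2 at 3.47, Irf9 at 1.72 and Irf7, which is itself interferon-induced, at 0.216 CPM per kilobase. Isg15, a ubiquitin-like protein, was at 1.18 and Usp18, the protease that removes it, at 0.234 CPM per kilobase.

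The lowest members could not be tested for change. Mx1, a dynamin-like antiviral GTPase, had 2 reads in the library labelled shAsns-1 and 0 reads in the other 4. Mx2 had at most 2 reads per library, Oas2 1 to 4, and Rsad2, which encodes viperin, 1 to 5. These 4 genes failed the filter on low counts, and the other 38 members were tested. No ligand was above the floor in all libraries: of 10 interferon genes Ifna2, Ifna4, Ifna5, Ifng, Ifnl2 and Ifnl3 had 0 reads in every library, Ifnb1 had 1 read, in shAsns-2 A, and Ifnk, with the highest values, had 0.144 to 0.586 CPM. Of the receptors and kinases, Jak1, Jak2 and the receptor chain Ifngr2 were the most abundant, at 32.3, 17.3 and 9.75 CPM per kilobase in shRenilla.

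**Figure D2:**
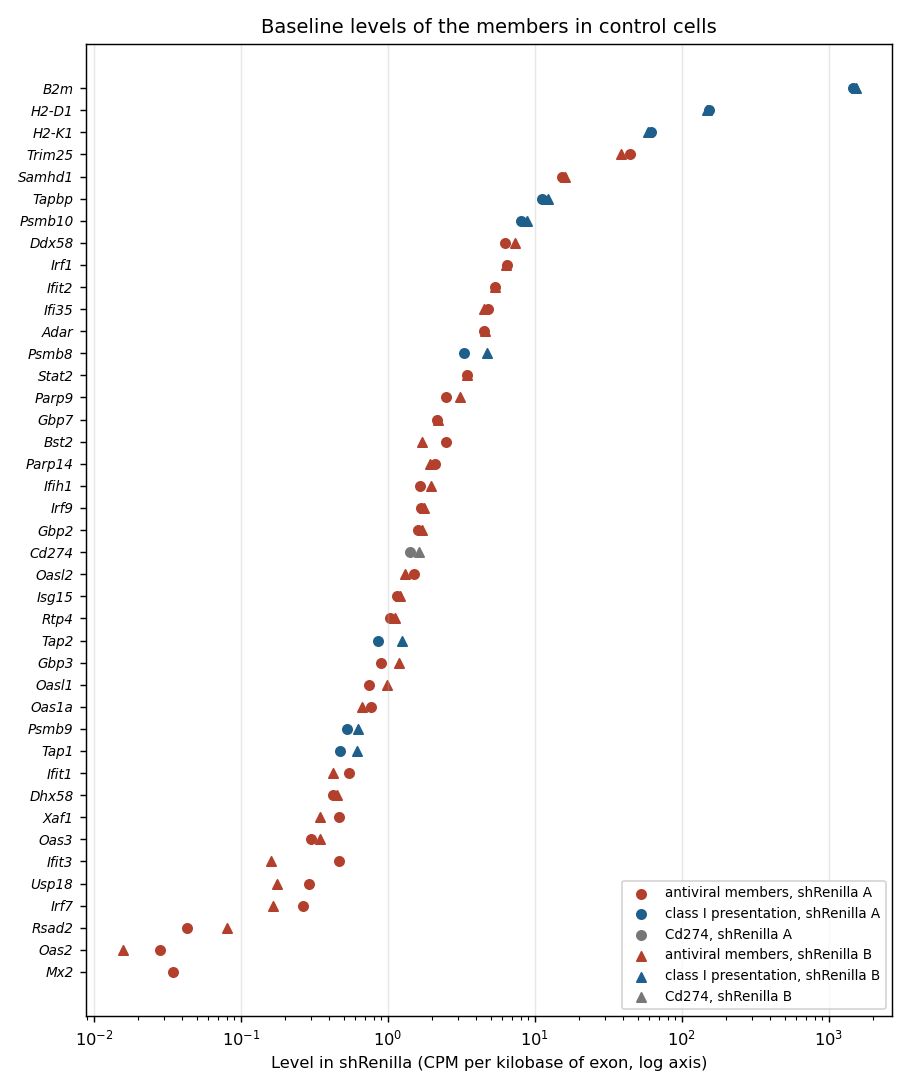
Level of each member in the 2 shRenilla libraries (circles A, triangles B) in CPM per kilobase of exon, on a log axis, by arm. B2m, H2-D1 and H2-K1 lie at the top; Mx1, with 0 reads in both, and Mx2 in shRenilla B, also at 0, are not drawn.

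The inducible proteasome subunits were a minor part of each pair at the RNA level. Psmb8, Psmb9 and Psmb10 replace the constitutive subunits Psmb5, Psmb6 and Psmb7 in the immunoproteasome. Taken per kilobase, Psmb8 made up 5.46 and 6.77% of the Psmb8 and Psmb5 sum for shRenilla, 6.12 and 5.84% for shAsns-2, and 9.51% in the library labelled shAsns-1. Psmb9 made up 1.76 and 2.24% of its pair in shRenilla, 2.65 and 3.03% in shAsns-2 and 3.55% in the library labelled shAsns-1. Psmb10 made up 19.3 and 20.4%, 23 and 19.3%, and 20.3% in the same order. Lengths were all annotated exon bases, 3381 for Psmb8 and 899 for Psmb5. They were 3660 and 1872 for Psmb9 and Psmb6, and 1705 and 3421 for Psmb10 and Psmb7. Before division by length, the shRenilla means were 13.6 and 55.2 CPM for Psmb8 and Psmb5. They were 2.13 and 53.5 CPM for Psmb9 and Psmb6, and 14.5 and 117 CPM for Psmb10 and Psmb7. The sizes and the order of the shares depend on these lengths. The Psmb9 share was higher in both shAsns-2 libraries than in both shRenilla libraries, whereas the Psmb8 and Psmb10 shares overlapped between these groups. With 2 libraries against 2 a two-sided exact permutation test cannot go below p = 0.333, so none was run. No cell fraction was measured in these bulk libraries, so fewer cells with an RNA and less of it per cell cannot be told apart.

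**Figure D3:**
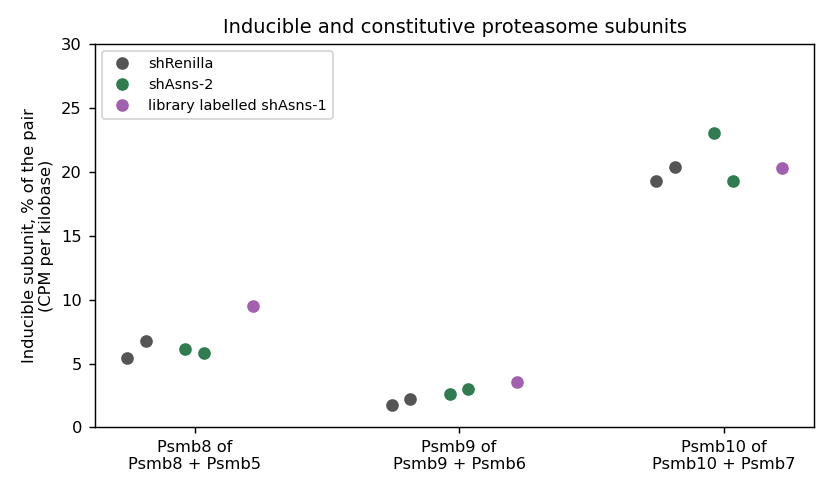
Inducible proteasome subunit as a percent of the sum with its constitutive counterpart, from CPM per kilobase, with 1 point per library. Psmb10 made up 19.3 to 23% of its pair, Psmb9 1.76 to 3.55% and Psmb8 5.46 to 9.51%.

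In shAsns-2, no member of either arm passed the test against shRenilla. edgeR's quasi-likelihood test called 0 of the 38 tested members at an adjusted p under 0.05, where it called 0.0642% of all 12457 tested genes; limma-voom called 0 members too, and DESeq2 0 of the 20 to which it gave an adjusted p. At an unadjusted p under 0.05, 2 members were higher (Oasl2 and Gbp7) and 1 lower (Adar), beside 5.59% of all tested genes higher and 4.05% lower; Oasl2 and Adar are named here after their values were seen. The median log2 fold change was 0.08 over the 28 tested antiviral genes and 0.01 over the 9 presentation genes, against 0.00 over all tested genes. Both shAsns-2 libraries lay above both shRenilla libraries in 9 antiviral and 2 presentation genes, where 16.6% of all tested genes did. They lay below both in 4 antiviral genes and 1 presentation gene, where 25.8% did. Such positions, here and below, are by CPM, without the fit's scaling between libraries.

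The heavy chains stayed within a narrow interval in shAsns-2. H2-K1 stood at 181 and 173 CPM for shRenilla and 167 and 176 CPM for shAsns-2, and the groups overlapped. Its ratio was 0.987-fold (95% interval 0.879 to 1.11). H2-D1 stood at 396 and 384 CPM in shRenilla and at 376 and 382 CPM in shAsns-2. Before scaling between libraries, the shAsns-2 pair lay just below the shRenilla pair (0.992-fold after scaling, 95% interval 0.886 to 1.11). B2m stood at 1264 and 1311 CPM in shRenilla and at 1444 and 1372 CPM in shAsns-2. The shAsns-2 libraries were the higher ones, but the difference did not pass (log2 fold change 0.16, SE 0.0784, adjusted p = 0.541 in edgeR).

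Oasl2, an interferon-induced gene related to oligoadenylate synthetases, stood at 9.59 and 8.33 CPM in shRenilla and at 13.2 and 10.8 CPM in shAsns-2 (log2 fold change 0.43, SE 0.155, edgeR adjusted p = 0.389). Gbp7, a guanylate-binding GTPase, stood at 12.1 and 12.2 CPM in shRenilla and at 15.3 and 14.2 CPM in shAsns-2 (0.30, SE 0.128, adjusted p = 0.467). Adar, which edits adenosine to inosine in double-stranded RNA, stood at 36.5 and 37.1 CPM in shRenilla and at 32.9 and 28.8 CPM in shAsns-2 (-0.23, SE 0.103, adjusted p = 0.487). Groups did not overlap for any of the 3, and none passed. Among signalling factors the log2 fold changes were 0.03 for Stat2, -0.18 for Irf1, -0.06 for Irf7 and 0.14 for Irf9, and among sensors -0.06 for Ddx58, -0.22 for Ifih1 and 0.16 for Dhx58, all uncalled. For Cd274 it was -0.20 (SE 0.206, edgeR adjusted p = 0.797).

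In the library labelled shAsns-1, Ifit1 and Gbp7 rose against shRenilla, and 0 members were called lower; without shRenilla B, Trim25 was called lower (log2 fold change -0.36, edgeR adjusted p = 0.0364). These are 2 of 38 tested members, both antiviral, beside 2.31% of all tested genes called higher and 2.06% called lower (4.37% in all). At an unadjusted p under 0.05, 10 members were higher and 2 lower, beside 10% and 9.54% of all tested genes. This library lay above both shRenilla libraries in 21 members and below both in 10, where 38.8% and 36.7% of all tested genes did. Since Asns is against its label there, and the group is 1 library assumed to vary like the others, the values describe that library. limma-voom called the same count of members, 2. DESeq2 gave an adjusted p to 12 of the 38 and called 0 of those; it gave none for Ifit1 and Gbp7, whose unadjusted p-values in DESeq2 were 0.00524 and 0.00361.

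Ifit1 binds viral RNA whose cap lacks a methyl mark, and lies at chr19:34640871-34650009 on the plus strand of GRCm38 (protein-coding, reads counted over exons). It had 44 reads in the library labelled shAsns-1, or 4.29 CPM (95% exact Poisson interval 3.12 to 5.77, counting error only). The shRenilla pair had 23 and 16 reads (1.44 and 1.12 CPM) and the shAsns-2 pair 20 and 25 reads (1.91 and 1.80 CPM). The shAsns-2 pair lay between shRenilla and the library labelled shAsns-1 without overlap. Its difference from shRenilla was not called (log2 fold change 0.55, SE 0.342, edgeR adjusted p = 0.627). Ifit1 was highest in the library labelled shAsns-1. Against shRenilla the ratio was 3.29-fold (95% interval 1.94 to 5.57; log2 fold change 1.72, SE 0.360, edgeR adjusted p = 0.0120), and 7.13% of its 50-base windows occur in other genes.

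Gbp7 (chr3:142530342-142550149, plus strand, protein-coding) stood at 20.4 CPM in the library labelled shAsns-1, above the 12.1 and 12.2 CPM of shRenilla and the 15.3 and 14.2 CPM of shAsns-2. Its ratio to shRenilla was 1.66-fold (95% interval 1.33 to 2.08; log2 fold change 0.73, SE 0.153, edgeR adjusted p = 0.0117). The call was lost without shRenilla A (0.73, adjusted p = 0.0516). Of the related genes Gbp2 and Gbp3, neither was called: the log2 fold change was -0.02 for Gbp2 (SE 0.296) and -0.49 for Gbp3 (SE 0.383). Of the Gbp7 windows of 50 bases, 12.8% occur elsewhere.

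Other antiviral members pointed both ways. Isg15 had 14 and 13 reads in shRenilla, 22 and 15 in shAsns-2 and 23 in the library labelled shAsns-1, with a log2 fold change there of 1.31 (SE 0.499, edgeR adjusted p = 0.152). Dhx58 had 0.93 (SE 0.393), Rtp4 0.76 (SE 0.323), Oas3 0.76 (SE 0.329) and Oasl2 0.43 (SE 0.195), with adjusted p-values of 0.200, 0.200, 0.208 and 0.233. On the other side were Oasl1 (-0.54, SE 0.425), Ifit3 (-0.52, SE 1.01), Adar (-0.32, SE 0.131) and Trim25 (-0.25, SE 0.110), uncalled in the planned fit. Ifit3 had only 4 reads there, beside 13 and 4 in shRenilla, and its CPM lay within the shRenilla pair. Of the 28 tested antiviral genes, 16 had a positive and 12 a negative log2 fold change. Of the related genes of Ifit1, Ifit2 and Ifit3 were not called: for Ifit2 the log2 fold change was -0.14 (SE 0.143). The median over the 28 antiviral genes was 0.10, against -0.01 over all tested genes.

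Between the hairpins, 0 members were called by edgeR, beside 2.14% of all tested genes (1.33% higher and 0.811% lower in shAsns-2). At an unadjusted p under 0.05, 2 were higher and 6 lower in shAsns-2, beside 8.87% and 7.89% of all tested genes. Trim25 stood at 255 and 222 CPM for shRenilla, 269 and 252 CPM for shAsns-2, and 202 CPM in the library labelled shAsns-1, the lowest of the 5. Its log2 fold change was 0.41, higher in shAsns-2 (SE 0.110, edgeR adjusted p = 0.0617), and ran from 0.359 to 0.461 on leaving out 1 library.

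No presentation gene was called in the library labelled shAsns-1 by the planned fit. Heavy chains and tapasin were close to shRenilla, with H2-K1 at 0.963-fold (95% interval 0.834 to 1.11), H2-D1 at 1.01-fold (0.880 to 1.16) and Tapbp at 1.00-fold (0.840 to 1.19). The inducible proteasome subunit Psmb10 had a log2 fold change of 0.05 and lay within the shRenilla libraries. The other 5 genes had higher values without a call: Psmb9 had a log2 fold change of 0.68, Tap2 0.63, Psmb8 0.53, Tap1 0.39 and B2m 0.29, with edgeR adjusted p-values of 0.292, 0.222, 0.123, 0.573 and 0.0889. Over all 9 the median was 0.29. With a trend on transcript GC content removed from every library it was 0.18, and B2m, whose transcript is 41.2% GC, went to 0.18 (adjusted p = 0.346). Over the alternatives the lowest edgeR adjusted p was 0.0495 for B2m and 0.0108 for Psmb8, so both passed under some of them.

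B2m (chr2:122147686-122153083, plus strand, protein-coding) stood at 1592 CPM in the library labelled shAsns-1, above both other groups, or 1.23-fold of shRenilla (95% interval 1.07 to 1.41). Psmb8 stood at 19.7 CPM there, at 11.2 and 16.1 CPM in shRenilla and at 13.3 and 12.2 CPM in shAsns-2. Both shAsns-2 libraries lay between the shRenilla libraries, and the log2 fold change of Psmb8 ran from 0.29 without shRenilla A to 0.80 without shRenilla B, where it passed (adjusted p = 0.0193). Tap1 and Tap2 had 40 and 63 reads in the library labelled shAsns-1, against 41 and 52 in shRenilla A and 48 and 67 in shRenilla B, from deeper libraries. Cd274 stood at 4.29 CPM, against 5.14 and 5.88 CPM in shRenilla (log2 fold change -0.37, SE 0.274, adjusted p = 0.504).

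**Figure D4:**
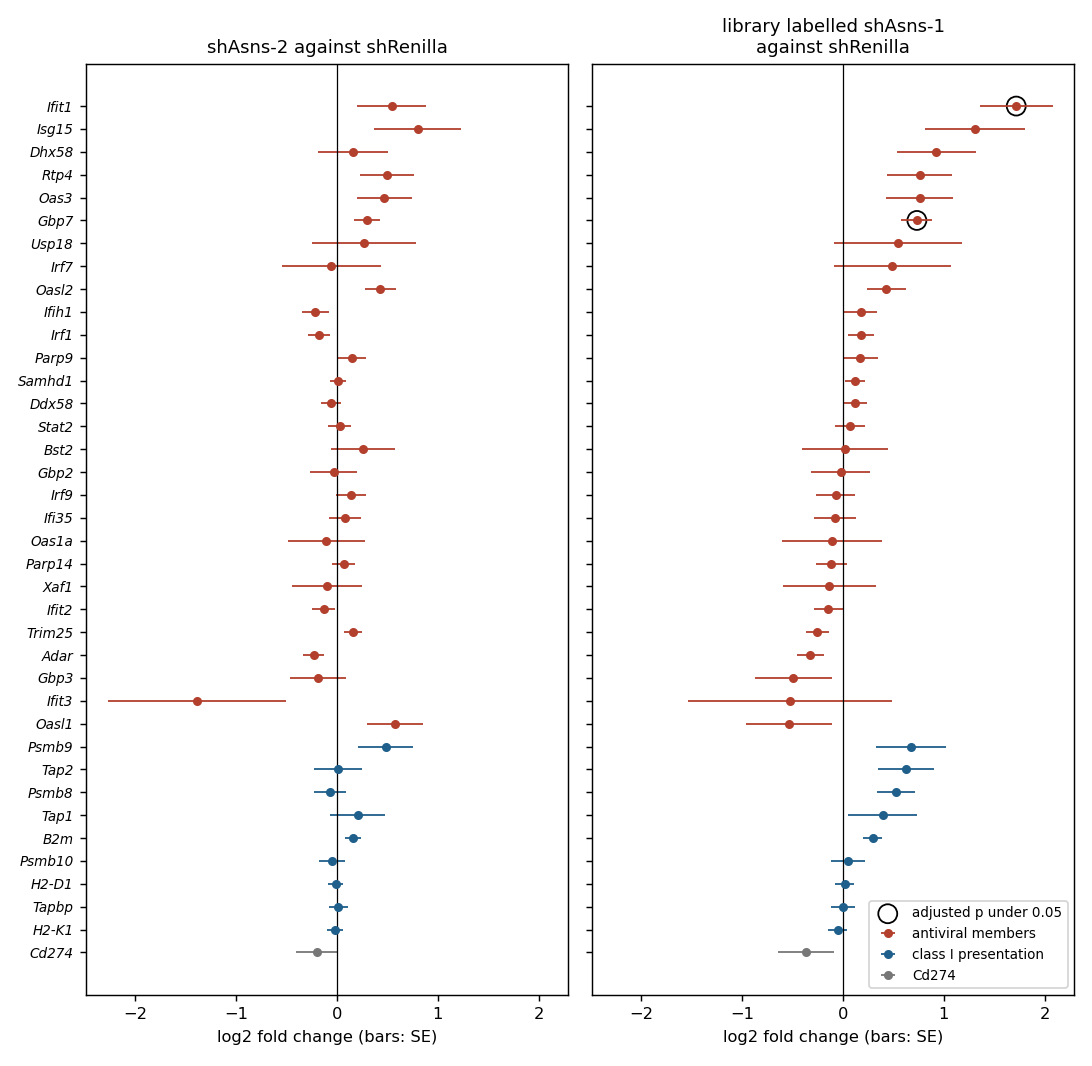
Fitted log2 fold change against shRenilla with its standard error for the 38 tested members, for shAsns-2 (left) and the library labelled shAsns-1 (right). Black rings mark an adjusted p under 0.05, which Ifit1 and Gbp7 reached in the library labelled shAsns-1 and no member reached in shAsns-2.

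Other genes of the pathway, from lists outside the 42, gave 2 calls by edgeR for the library labelled shAsns-1 and 0 for shAsns-2. Among 29 tested further interferon-stimulated genes, Herc6, the ligase that attaches ISG15 in mouse, and Ifi203, a DNA-binding protein of the PYHIN family, rose, 0 fell and the others were not called, beside 2.31% of all tested genes called higher and 2.06% called lower. Herc6 stood at 21.9 and 24.1 CPM in shRenilla, 23.5 and 23.4 CPM in shAsns-2 and 36.0 CPM in the library labelled shAsns-1 (log2 fold change 0.64, SE 0.128, edgeR adjusted p = 0.00886). Ifi203 stood at 145 CPM in each shRenilla library, 160 and 159 CPM in shAsns-2 and 208 CPM there (0.51, adjusted p = 0.0057); with the GC trend removed it lost the call (0.34, adjusted p = 0.0599). That list had a median log2 fold change of 0.20 there and 0.07 for shAsns-2.

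Receptors and kinases (9 tested), further STAT, IRF and class I activators (8), sensing adaptors and kinases (8), negative regulators (7) and further presentation genes (16) had 0 members called in either comparison with shRenilla, by edgeR. At an unadjusted p under 0.05 these 48 genes gave 4 higher and 4 lower in shAsns-2, and 4 higher and 2 lower in the library labelled shAsns-1; over all tested genes the shares were 5.59% and 4.05%, and 10% and 9.54%. Ifitm3, a membrane protein that hinders virus entry and the most abundant of the further interferon-stimulated genes at 422 CPM per kilobase, had log2 fold changes of 0.23 for shAsns-2 and -0.07 for the other comparison, both uncalled.

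**Figure D5:**
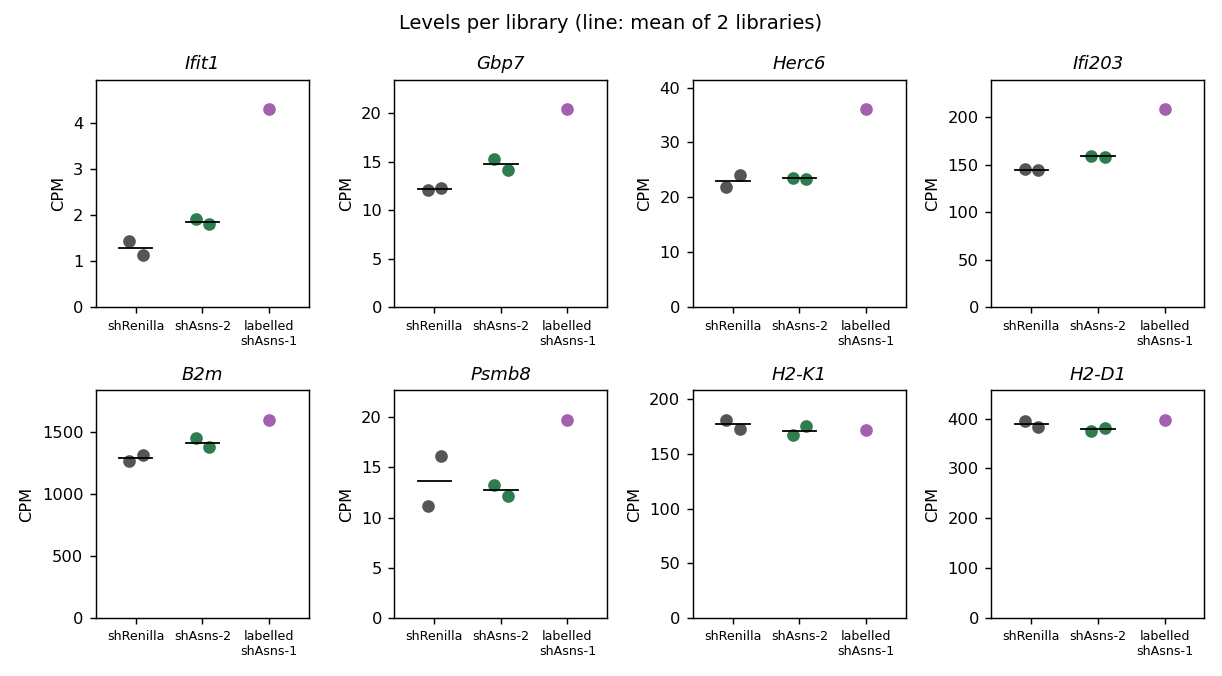
CPM in each library for the 4 pathway genes called in the library labelled shAsns-1 (top row) and for 4 presentation genes (bottom row), with y axes from 0 and lines at the mean of 2 libraries. Ifit1, Gbp7, Herc6 and Ifi203 are highest in the library labelled shAsns-1. B2m, Psmb8 and, narrowly, H2-D1 are highest there too, without a call in the planned fit. H2-K1 and H2-D1 lie within 167 to 181 and 376 to 397 CPM in all 5.

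Several values moved with the library labelled shAsns-1 beside these genes. Apart from a fit with the GC trend removed, their part in the results was not tested. The carcinoma line markers, summed over 7 genes, stood at 852 CPM there and at 991 to 1059 CPM in the other libraries, with Krt14, Epcam and Cdh1 called lower (log2 fold changes -2.21, -0.69 and -0.48); the Cdh1 call was lost without shAsns-2 A (edgeR adjusted p = 0.0616) or shAsns-2 B (0.0602). The 10 leukocyte markers summed to 7.22 CPM there and to 4.97 to 6.999 CPM elsewhere, of which Cd68 gave 4.07 to 6.37 CPM; Ptprc had 6 reads there against 1 to 3 in the others, and Itgam 9 against 0 to 2. The 6 fibroblast markers summed to 39.3 CPM there and to 28.9 to 29.8 CPM elsewhere, nearly all of it Pdgfra, which had 38.1 CPM there and 28.4 to 29.6 CPM elsewhere (log2 fold change 0.40, edgeR adjusted p = 0.0708); Lum had 0 reads in every library. The 4 class II markers summed to 8.39 CPM there and to 6.49 to 9.45 CPM elsewhere. Across 12353 genes the log2 fold change of that library against shRenilla fell with transcript GC content (Spearman -0.236, across genes, which are not replicates), against 0.0675 in shAsns-2; the transcripts of Ifit1, Gbp7, Herc6 and Ifi203 are 43.3, 41.7, 39.4 and 38.4% GC. With the GC trend removed, Ifit1 (1.64, edgeR adjusted p = 0.0203), Gbp7 (0.63, adjusted p = 0.0342) and Herc6 (0.49, adjusted p = 0.0465) still passed.

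The response element was also set beside the calls. Of 13 tested members that carried it, 2 were called higher in the library labelled shAsns-1 (Ifit1 and Gbp7), and of 19 tested members with an entry and without it, 0. Their median log2 fold changes were 0.12 and 0.00 for that library, and 0.03 and -0.01 for shAsns-2. Over all tested genes with an entry, 10 of 322 that carried the element were called higher and 5 lower in that library, beside 186 and 178 of 8860 without it. At baseline the members with the element had a median of 1.65 CPM per kilobase in shRenilla and those without it 4.54. Over all tested genes with an entry these medians were 6.06 and 6.3. Only 1 of 8 presentation genes held the element, and that arm had the higher baseline median (8.48 against 1.29 CPM per kilobase). Element and arm are therefore not separate among the members.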

How the data were processed

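The authors deposited whole-number read counts per gene for 6 libraries. Per the submitters' processing notes, the tools were Bowtie2 and HTSeq and the build mm10 (versions, annotation and strand: not given in the sources used here). Per the labels' protocols RNA was taken with Trizol and libraries made with the Nugen Ovation RNAseq V2 kit. The library shAsns-1 B was 0 throughout and was left out, so the planned fit used 5 libraries with 2 residual degrees of freedom. HTSeq's tally rows stayed out; reads in no feature made up 36.1 to 38.3% of all reads. The tally for reads with several alignments was 0, and the sources used here do not say how such reads were handled.

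Counts were fitted with edgeR 4.0.16 (R 4.3.3, limma 3.58.1) by its quasi-likelihood test, with filterByExpr, TMM factors (0.983 to 1.01) and Benjamini-Hochberg adjustment over 12457 tested genes; calls are at an adjusted p under 0.05. DESeq2 1.42.0, limma-voom, another scaling, no filter, a replicate block, a GC offset and leaving out libraries were alternatives. Exon lengths, over all annotated exon bases of a gene, and GC content came from GENCODE M21 (GRCm38), and promoters from RefSeq (GRCm38.p6). Members and lists were chosen with earlier results of these data known. By the naming rule, values in every library are given for members called or with an unadjusted p under 0.01 in any comparison, and for the 3 highest and 3 lowest of each arm at baseline; others are given by counts, ranges or fold changes, and of other lists the called genes and at most 3 with the highest baseline. Library values of Asns, Oasl2, Adar, Isg15 and Cd274 and of markers are added. Log2 fold changes had a median SE of 0.112 (shAsns-2) or 0.142 (library labelled shAsns-1). The fit was tested on simulated data. Libraries of a group were not duplicates (A against B, chi-square over its degrees of freedom: shAsns-2 3.17, shRenilla 9.20).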

Additional observations from a re-analysis of the deposited data

Results flagged for a closer look

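The difference between the hairpins passed edgeR's test for Herc6 and for 4 genes outside the pathway. Herc6 was lower in shAsns-2 than in the library labelled shAsns-1 (log2 fold change -0.58, adjusted p = 0.0262); the call was lost with DESeq2 (adjusted p = 0.118), with the GC trend removed (0.121), and without shAsns-2 A (0.169) or shAsns-2 B (0.139). Asns was lower in shAsns-2 (-1.26), and Krt14 (2.14), Epcam (0.95) and Cdh1 (0.55) were higher; for Cdh1 the adjusted p was 0.164 on leaving out shAsns-2 A and 0.0779 on leaving out shAsns-2 B, so that call was lost. With 1 library on that side, hairpin and library cannot be told apart. None of the 38 tested members passed this test in edgeR (8 did at an unadjusted p under 0.05), nor in limma-voom; DESeq2 gave an adjusted p to 12 of them and called 0 of those.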

How the results depend on the processing

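In shAsns-2, 0 members were called under every alternative run, while the count of all genes called went from 8 to 114 with no filter on low counts, to 178 with the replicate block and to between 0 and 47 on leaving out 1 library. In the library labelled shAsns-1, the 2 members called became 0 with DESeq2, 4 with no filter, 4 with the replicate block (3 higher and 1 lower, Trim25, -0.331) and 1 (without shRenilla A) to 4 (without shRenilla B, 3 higher and 1 lower) on leaving out 1 library; all genes called went from 544 to 257, 919, 924 and 290 to 825 in the same order. Between the hairpins, 0 members became 3 with no filter, 2 with the replicate block and 0 to 2 on leaving out 1 library; 267 genes became 157 with DESeq2, 608 with no filter, 875 with the replicate block, 151 with the GC trend removed and 58 to 642. The letters A and B are not said to pair libraries, and deviations of same-letter libraries did not correlate (r = -0.0173), so the block stands only here.

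The antiviral median in shAsns-2 (0.0752) was 0.0793 with DESeq2, 0.0817 with the replicate block, 0.0808 with the GC trend removed, 0.0842 in the fit of 2 groups and 0.0275 to 0.141 without 1 library; in the library labelled shAsns-1 (0.0955) it was 0.0753 with no filter, 0.0715 with the replicate block, 0.103 with the GC trend removed and 0.0787 to 0.149. The presentation median was -0.0182 to 0.175 without 1 library in shAsns-2, and in the library labelled shAsns-1 0.179 with the GC trend removed. In shAsns-2 the sign turned for Psmb8 (-0.308 to 0.203) and Herc6 (-0.000999 to 0.12) on leaving out 1 library. With the shorter core AANNGAAA, which lies within the longer motif, 75.0% of antiviral genes, 37.5% of presentation genes and 26.7% of all genes matched. Apart from fewer samples or other genes tested, causes were not tested. At 10244753 to 15955168 gene reads, Irf7, Usp18, Ifit3, Mx1, Mx2, Oas2 and Rsad2 had at most 16 reads in any library, which limits what can be said of them.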
